A study of Mus musculus with 9 samples.

Results

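The long noncoding RNA (lncRNA) genes Neat1, Malat1, Gas5, Snhg1, Snhg3, Snhg8 and Snhg12 were followed in mouse liver under alcohol feeding. They were chosen by gene name, as every entry of the gene table and every transcript of the lncRNA table that carries one of these 7 names. By this rule 6 of 52151 gene entries and 66 of 26083 lncRNA transcripts were taken. Gas5 had 24 transcripts, Snhg1 18, Snhg12 7, Malat1 6, Snhg3 5, Neat1 3 and Snhg8 3, and 64 of the 66 were known transcripts. The other 2 were Malat1 transcripts that the authors assembled from these libraries.

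Malat1 and Neat1 are transcribed from neighbouring genes and stay in the nucleus. Malat1 accumulates in nuclear speckles, bodies rich in splicing factors, and Neat1 is the RNA scaffold of paraspeckles, which form around its long form and not around its short form. Gas5 and the Snhg genes carry small nucleolar RNAs (snoRNAs) in their introns. The snoRNAs guide chemical modification and processing of ribosomal RNA, while the spliced host RNAs are mostly degraded by nonsense-mediated decay, as is known for Gas5.

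Mice of 8 weeks were fed for 5 weeks, and 3 liver libraries were made in each of 3 groups. The PF (pair-fed) group drank a liquid diet without alcohol that matched the calories, and the AF (alcohol-fed) group took alcohol in the Lieber-DeCarli diet. The third group received the Lieber-DeCarli diet and daily intraperitoneal MNA at 50 mg/kg (AF with MNA), a compound whose name the labels do not spell out. The strain label read C57BL/6 in PF and AF, but C57BL/7, C57BL/8 and C57BL/9 in the 3 libraries of AF with MNA, so the strain of that group could not be read from its labels. The labels number the libraries without saying that they come from separate mice, so p-values measure the spread between these libraries, which may be technical. In whole liver, fewer cells of a type and less RNA per cell cannot be told apart.

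The values were FPKM, in which the fragments of a transcript are divided by its length in kilobases and scaled to 1000000 fragments of the library. The tables gave no read counts for genes or lncRNAs. A level of 1 FPKM corresponded to a mean read coverage of 5.84 to 8.30 reads per base, depending on the library. Hepatocyte markers (6 of 6 genes above 0) summed to 16378 to 24268 FPKM in the 9 libraries. Endothelial markers summed to 19.7 to 24.3 FPKM (PF), 24.9 to 36.2 FPKM (AF) and 30.4 to 33.8 FPKM (AF with MNA). Cholangiocyte markers summed to 2.59 to 3.39, 3.92 to 7.73 and 2.69 to 5.37 FPKM in the same groups. Both lists were thus higher in every AF library than in any PF library, with none of their 5 and 4 genes at 0, and their part in the results below was not tested. Assembled transcripts inside introns summed to 9433 FPKM in AF replicate 3 and 8934 FPKM in AF with MNA replicate 1, against 2477 to 4937 FPKM in the other 7 libraries.

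The transcription starts of the snoRNA hosts are shown because this class of gene is known for starting transcription in a run of pyrimidines (C and T), as genes of ribosomal proteins do. Each line holds 80 bases of RefSeq sequence (mouse build GRCm38.p6) on the strand of the gene, and its 36th base is the annotated start. The capitals mark the longest unbroken run of C and T that touches the interval from 5 bases before to 10 bases after the start, and the letters TATA where they occur between 45 and 15 bases before it. Malat1, which is no snoRNA host, is given for contrast.
Gas5: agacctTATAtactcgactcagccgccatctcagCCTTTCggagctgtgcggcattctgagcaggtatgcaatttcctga
Snhg1: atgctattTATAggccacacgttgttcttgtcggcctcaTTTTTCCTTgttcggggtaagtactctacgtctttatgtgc
Snhg8: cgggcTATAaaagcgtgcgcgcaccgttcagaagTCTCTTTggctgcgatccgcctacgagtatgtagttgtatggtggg
Snhg12: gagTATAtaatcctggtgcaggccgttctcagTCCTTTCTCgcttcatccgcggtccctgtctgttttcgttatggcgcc
Snhg3: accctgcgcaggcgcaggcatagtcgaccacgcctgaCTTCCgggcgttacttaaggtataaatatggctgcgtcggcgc
Malat1: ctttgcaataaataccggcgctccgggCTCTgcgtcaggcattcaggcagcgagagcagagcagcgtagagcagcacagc

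The windows lie at chr1:161035131-161035210 (plus strand) for Gas5, chr19:8723452-8723531 (plus) for Snhg1, chr3:123508292-123508371 (minus) for Snhg8, chr4:132308643-132308722 (plus) for Snhg12, chr4:132353642-132353721 (minus) for Snhg3 and chr19:5802628-5802707 (minus) for Malat1. The run was 9 bases long in Snhg1 and Snhg12, a length reached or passed by 7.89% of 32851 RefSeq promoters. It was 7 bases in Snhg8 (16.3% of promoters), 6 in Gas5 (24.4%), 5 in Snhg3 (38%) and 4 in Malat1 (56%). The run held the annotated start base in Gas5, Snhg8 and Snhg12. It began after that base in Snhg1 and Snhg3 and ended before it in Malat1. TATA on the gene strand was present in the windows of Gas5, Snhg1, Snhg8 and Snhg12 and in 6.72% of all promoters. Neither the Snhg3 nor the Malat1 window held it in that interval. RefSeq gives Gas5 a second start farther upstream, whose window had a run of 3 bases (75.9% of promoters) and no TATA. The start shown has 13 of the 24 annotated Gas5 transcripts starting within 50 bases of it. The count was 4 of 7 for Snhg12, 2 of 3 for Snhg8 and Malat1, 2 of 5 for Snhg3 and only 3 of 18 for Snhg1. The leading Snhg1 transcript starts 518 bases downstream of the start shown.

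Malat1 was the most abundant of the 7 genes in every library, and the other 6 did not exceed 4.87 FPKM in any. Averaged over the 9 libraries the level was 61.0 FPKM for Malat1, 2.85 for Gas5, 2.73 for Snhg8, 2.23 for Neat1, 1.36 for Snhg1, 1.00 for Snhg3 and 0.513 for Snhg12. Gene entries gave these levels for 5 genes. The transcripts of Neat1 and Snhg3 had been merged into entries named for overlapping small RNA genes, so for these 2 the FPKM of their own transcripts was summed by length and divided by the union of their exons. Malat1 stood above Gas5 in 9 of 9 libraries. The neighbours below it in this order were less clearly apart, with Gas5 above Snhg8 in 6 of 9 libraries, Snhg8 above Neat1 in 7, Neat1 above Snhg1 in 8, Snhg1 above Snhg3 in 6 and Snhg3 above Snhg12 in 7. The ratio of the highest to the lowest library was 1.46 for Gas5, 2.09 for Snhg1, 2.16 for Snhg12, 2.65 for Snhg8, 5.09 for Snhg3, 9.85 for Malat1 and 14.9 for Neat1.

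**Figure D1:**
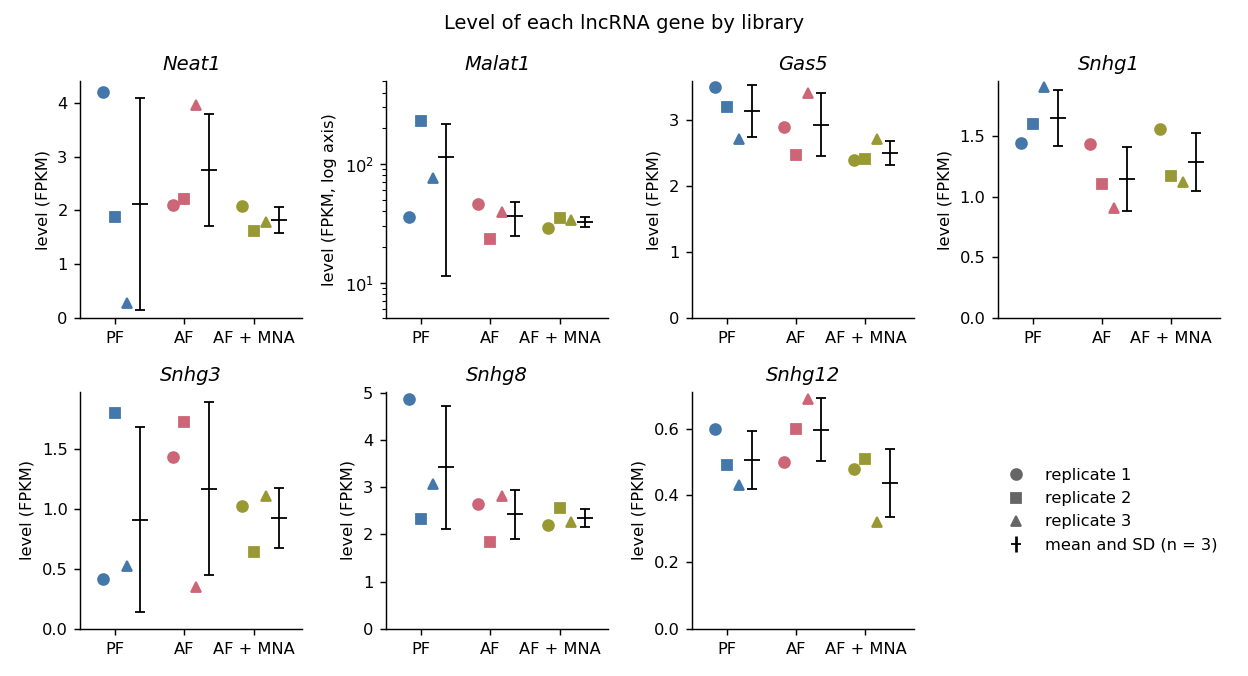
Level of each gene in FPKM (vertical axes, starting at 0 except for the log axis of Malat1) in the 3 libraries of each group, with the mean and SD. Malat1 in PF spans 35.6 to 231 FPKM and Neat1 in PF 0.282 to 4.2 FPKM, while Gas5 stays between 2.39 and 3.49 FPKM in all 9 libraries.

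The first comparison asked how the 7 genes differed between alcohol-fed and pair-fed livers. At the level of whole genes no difference passed the test. Malat1 averaged 114 ± 103 FPKM in PF and 36.2 ± 11.5 FPKM in AF (SD, n = 3), but its PF libraries differed among themselves more than the groups did. Snhg1 was the single gene of which every AF library lay below every PF library. Gas5, Snhg8 and Snhg12 overlapped between the groups, as did Neat1 and Snhg3 summed over their own transcripts.

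A feature was counted as past the threshold of the study's methods when its unadjusted p was under 0.05 and the log2 ratio of its group mean FPKMs was above 1 or below -1. In limma on log2(FPKM + 1), 0 of the 5 tested gene entries passed in AF against PF, where 4.3% of 12268 entries did, and 0 of 5 had an unadjusted p under 0.05, against 11.7% of all. The linear model with a library-size covariate and no moderation also gave 0. The sixth entry, a minor Gas5 entry of 1 assembled transcript, was left out because it has no known transcript. The median log2 ratio of the 5 entries was -0.49, against -0.03 over all tested entries. With 3 libraries against 3, an exact permutation test of a single value cannot give a p below 0.1.

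Malat1 (chr19:5795690-5802672, minus strand) is transcribed mainly as an unspliced RNA. Its gene entry stood at 35.6, 231 and 76.7 FPKM (PF), 45.9, 23.4 and 39.1 FPKM (AF) and 29.0, 34.7 and 33.8 FPKM (AF with MNA). PF replicates 2 and 3 were thus above all other libraries, while PF replicate 1 lay among the AF libraries. The log2 ratio of AF over PF was -1.66, and the difference on the log2(FPKM + 1) scale was -1.28 ± 0.65 (SE; limma, adjusted p = 0.509). Single PF libraries decided this value. Without PF replicate 2 the log2 ratio was -0.63, and without PF replicate 1 it was -2.09 and the entry passed the threshold in limma. In PF replicate 2 the hepatocyte markers summed to 24268 FPKM, the highest of the 9 libraries, and the transcripts inside introns to 4429 FPKM, and their part in the Malat1 value was not tested.

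The spread of Malat1 in PF lay in its long transcripts. The unspliced transcript ENSMUST00000172812 of 6983 bases stood at 12.5, 221 and 62.4 FPKM (PF), 18.8, 8.36 and 12.0 FPKM (AF) and 5.51, 14.2 and 13.9 FPKM (AF with MNA). The leading Malat1 transcript by FPKM was another one, the spliced ENSMUST00000173499 at the 5′ end, with 246, 157 and 278 FPKM (PF), 353, 238 and 425 FPKM (AF) and 362, 229 and 213 FPKM (AF with MNA). The library with the highest long form, PF replicate 2, had the lowest value of this spliced transcript. Every base of the short transcript also lies in the unspliced one, and 89.5% of it is the first exon, so that among exonic reads those across the junction identify the spliced transcript. The 2 sequences (GENCODE M21, build GRCm38) are given around the end of that exon, with the bases that follow it in capitals.
Malat1 spliced: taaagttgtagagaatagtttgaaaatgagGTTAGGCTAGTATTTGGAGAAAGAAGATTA
Malat1 unspliced: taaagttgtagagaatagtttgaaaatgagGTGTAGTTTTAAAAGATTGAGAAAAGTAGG

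The spliced sequence lies within chr19:5801937-5802267 and skips an intron of 271 bases, and the unspliced one lies at chr19:5802208-5802267. Transcripts of Malat1 over 6000 bases, the unspliced one and the 2 assembled ones, took 75.5 ± 20.3% of the Malat1 fragments of the PF libraries (SD, n = 3). The PF libraries stood at 54.9, 95.5 and 76.3%. Since the short transcript lies wholly within the unspliced one, this division of reads is an estimate, and the shares were not tested between groups. The share of the long transcripts was 37.3 ± 10.8% with alcohol and 44.4 ± 23.0% with alcohol and MNA. The lowest share of either group was in its library high in transcripts inside introns, with 28.8% in AF replicate 3 beside 49.5 and 33.6% in the other AF libraries, and 17.9% in AF with MNA replicate 1 beside 56.8 and 58.6%. The part of the intron signal in these shares was not tested. Their summed level was 22.1, 238 and 62.4 FPKM (PF), 25.1, 8.41 and 12.1 FPKM (AF) and 5.55, 22.1 and 22.3 FPKM (AF with MNA). The spliced transcript was higher than this sum in 8 of the 9 libraries by 4.46 to 65.1 times, and lower in PF replicate 2, at 0.663 times. Malat1 overlaps the gene model Gm37376 on the opposite strand, within the stretch of the spliced transcript.

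**Figure D2:**
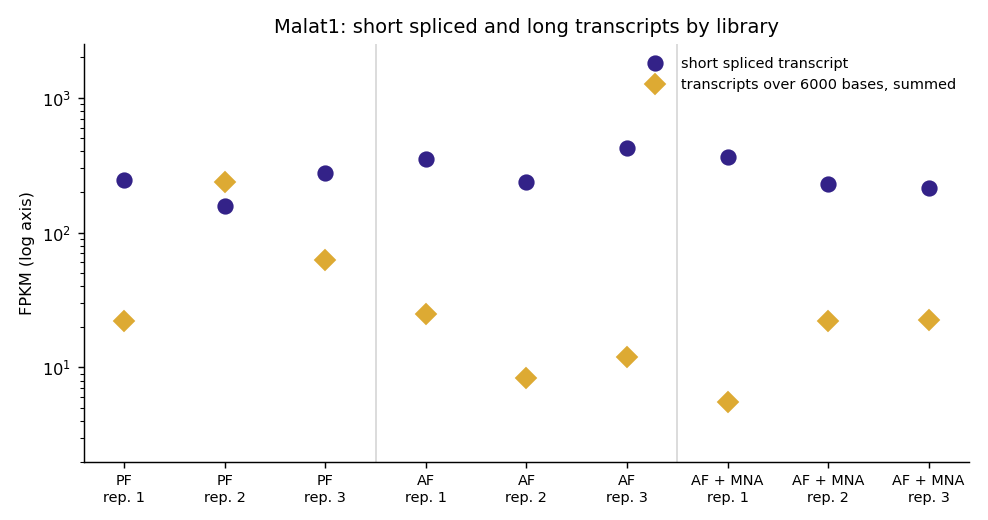
FPKM on a log axis of the short spliced Malat1 transcript (circles) and of the Malat1 transcripts over 6000 bases summed (diamonds) in each of the 9 libraries. The circles stay between 157 and 425 FPKM, while the diamonds range from 5.55 FPKM in AF with MNA replicate 1 to 238 FPKM in PF replicate 2, the single library in which the diamond is above the circle.

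ENSMUST00000172812 was 1 of 3 member transcripts past the threshold in AF against PF, with a log2 ratio of -2.92 and a difference on the log2(FPKM + 1) scale of -2.10 ± 0.80 (SE; limma, adjusted p = 0.598). Its groups overlapped, since PF replicate 1 lay below AF replicate 1. The call was lost without PF replicate 2 (log2 ratio -1.52) or 3 (-3.16), and without AF replicate 1 (-3.28), 2 (-2.68) or 3 (-2.86), where the ratio stayed below -1 and the unadjusted p rose above 0.05.

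Neat1 (chr19:5824708-5845478, minus strand) is represented by a long unspliced transcript of 20771 bases, ENSMUST00000173672, and by the shorter ENSMUST00000174287 of 3004 bases and ENSMUST00000174829 of 1030 bases. The long form stood at 4.08, 1.82 and 0.223 FPKM (PF), 2.07, 2.09 and 3.90 FPKM (AF) and 1.94, 1.42 and 1.69 FPKM (AF with MNA). It was lowest in PF replicate 3 and highest in PF replicate 1, so the PF libraries enclosed all others. The 3004-base form stood at 0.300, 0.453 and 0.408 FPKM (PF), 0.125, 0.711 and 0.297 FPKM (AF) and 1.02, 1.27 and 0.666 FPKM (AF with MNA). All its bases lie within the long form, so the division of reads between the 2 is an estimate.

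Short Neat1 ends at a polyadenylation signal, and the long form reads through it. The last 60 bases of ENSMUST00000174287 (GENCODE M21, build GRCm38, chr19:5842307-5842366, minus strand) are shown for this reason, with the signal AATAAA, which starts 20 bases from the end, in capitals.
Neat1 short form 3′ end: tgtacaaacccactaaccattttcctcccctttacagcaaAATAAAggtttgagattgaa

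By length, the long form held most of the Neat1 fragments, 79.1 to 99% in the 9 libraries. For a test of Neat1 and Snhg3, which have no gene entry of their own, the fragments of a member's transcripts were summed per 1000000 fragments of the library (FPM), a measure chosen after the data were seen. On this scale 0 of 7 members passed the threshold in AF against PF, where 3.65% of 13030 lncRNA loci did, and 0 of 7 had an unadjusted p under 0.05 in limma, against 3.76% of all. Neat1 stood at 87.2, 39.1 and 5.87 FPM in PF and at 43.4, 45.8 and 82.1 in AF. The log2 ratio was 0.37, and the difference on the log2(FPM + 1) scale was 0.94 with a 95% interval from -0.98 to 2.86 (limma, adjusted p = 0.717). The log2 ratio was 1.34 without PF replicate 1 and turned to -0.15 without PF replicate 3.

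Gas5 (chr1:161034422-161038539, plus strand) hosts 9 snoRNA genes, and its 5′ end overlaps Zbtb37 on the opposite strand. Its gene entry was among the steadiest of the 7, at 3.49, 3.19 and 2.71 FPKM (PF), 2.89, 2.46 and 3.41 FPKM (AF) and 2.39, 2.40 and 2.71 FPKM (AF with MNA). PF and AF overlapped. The difference of AF from PF was -0.08 on the log2(FPKM + 1) scale, with a 95% interval from -0.42 to 0.27 (limma, adjusted p = 0.872).

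Within Gas5 the fragments were spread over many transcripts. The leading one by FPKM, ENSMUST00000162558 of 502 bases and 12 exons, stood at 5.30, 3.08 and 3.20 FPKM (PF), 3.97, 2.7 and 4.55 FPKM (AF) and 6.12, 1.92 and 2.86 FPKM (AF with MNA). It held 10.7 to 34.1% of the Gas5 fragments, and the longest one, ENSMUST00000161229 of 2556 bases, which retains introns with 6 snoRNA genes, held 18.3 to 31.8%. The groups overlapped for both between PF and AF.

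The Gas5 transcript past the threshold was ENSMUST00000161380 of 600 bases, with 0.917, 0.774 and 1.75 FPKM in PF. It was listed at 0 in all 3 AF libraries and at 0.0503, 0 and 0.0220 FPKM in AF with MNA. The difference of AF from PF was -1.07 ± 0.35 on the log2(FPKM + 1) scale (SE; limma, adjusted p = 0.598), and it stood in for the log2 ratio, which has no value against a mean of 0. Without PF replicate 3 the difference was -0.88, the unadjusted p rose above 0.05 and the call was lost. A value of 0 from StringTie can be a transcript to which no reads were assigned while the locus was read, as here, since Gas5 itself was near 3 FPKM. This transcript keeps the intron at chr1:161036853-161037123, 271 bases that hold the snoRNA gene Snord78. The 60 bases around the start of that intron (GENCODE M21, chr1:161036833-161036892) are shown with the bases absent from the leading transcript in capitals.
Gas5 ENSMUST00000161380: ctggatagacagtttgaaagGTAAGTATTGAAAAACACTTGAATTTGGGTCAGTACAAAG

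A further Gas5 transcript, ENSMUST00000161623 of 403 bases, did not overlap between the groups, at 0.150, 0 and 0.144 FPKM (PF) against 0.801, 1.93 and 0.208 FPKM (AF). It did not pass the test (limma, adjusted p = 0.598).

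Snhg1 (chr19:8723475-8726443, plus strand) hosts 8 snoRNA genes. Its gene entry stood at 1.44, 1.6 and 1.9 FPKM (PF), 1.43, 1.10 and 0.910 FPKM (AF) and 1.56, 1.17 and 1.12 FPKM (AF with MNA). Every AF library was below every PF library, by a margin of 0.01 FPKM at the closest, and 10.1% of all tested entries were separated in that direction. The difference of AF from PF was -0.31 ± 0.14 on the log2(FPKM + 1) scale (SE; limma, adjusted p = 0.467), with a log2 ratio of -0.52.

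The leading Snhg1 transcript, ENSMUST00000205909 of 709 bases, passed the threshold. It stood at 2.04, 4.86 and 6.11 FPKM (PF), 1.17, 0.904 and 1.27 FPKM (AF) and 5.06, 1.19 and 1.65 FPKM (AF with MNA). All PF libraries were above all AF libraries, and AF with MNA replicate 1 lay in the range of PF. The log2 ratio of AF over PF was -1.96 and the difference -1.25 ± 0.33 on the log2(FPKM + 1) scale (SE; limma, adjusted p = 0.598). The call held without each of the 6 libraries in turn, and was lost in the model with the library-size covariate.

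ENSMUST00000206155, of 605 bases, differs from it only at the 5′ end and was listed at 0 in 4 libraries. It stood at 3.06, 0 and 0 FPKM (PF), 2.17, 0 and 1.9 FPKM (AF) and 0, 2.36 and 1.97 FPKM (AF with MNA). Summed, the 2 transcripts stood at 5.10, 4.86 and 6.11 FPKM (PF), 3.34, 0.904 and 3.17 FPKM (AF) and 5.06, 3.55 and 3.63 FPKM (AF with MNA), a sum formed after the values were seen and not tested. They share their last 573 bases. Their starts (GENCODE M21, build GRCm38, within chr19:8723475-8724160) are shown with the first 20 shared bases in capitals.
Snhg1 ENSMUST00000206155: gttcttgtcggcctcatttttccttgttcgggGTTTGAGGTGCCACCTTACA
Snhg1 ENSMUST00000205909: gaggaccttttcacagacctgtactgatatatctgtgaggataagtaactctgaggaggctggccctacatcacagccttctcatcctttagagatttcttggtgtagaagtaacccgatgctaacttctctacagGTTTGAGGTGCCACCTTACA

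ENSMUST00000206155 has 32 bases of its own, which lie in the start window shown for the gene, and ENSMUST00000205909 has 136, of which 60 lie in the snoRNA gene Gm25855. Exonic snoRNA bases are common in the transcripts of these 2 hosts, being present in 15 of 18 transcripts of Snhg1 and in 17 of 24 of Gas5. The count was 5 of 7 for Snhg12, 1 of 5 for Snhg3 and 1 of 3 for Snhg8. Among tested transcripts such bases were present in 9 of 11 for Snhg1 and 12 of 19 for Gas5, the 2 called ones included, so this feature does not set the called transcripts apart. The snoRNA genes of Gas5, Snhg1 and Snhg8 themselves have no transcript in the gene table used here.

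Snhg8 (chr3:123507552-123508404, minus strand), host of Snora24, stood at 4.87, 2.33 and 3.07 FPKM (PF), 2.64, 1.84 and 2.81 FPKM (AF) and 2.21, 2.56 and 2.26 FPKM (AF with MNA). PF replicate 1 was the highest library and the groups overlapped. The difference of AF from PF was -0.34 on the log2(FPKM + 1) scale, with a 95% interval from -0.91 to 0.23 (limma, adjusted p = 0.628). The leading transcript, the spliced ENSMUST00000199645 of 528 bases, held 35.6 to 82.5% of the Snhg8 fragments, and the unspliced ENSMUST00000198509 of 776 bases, which includes Snora24, held 15.7 to 34.8%.

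Snhg12 (chr4:132308623-132311024, plus strand), host of 4 snoRNA genes, stood at 0.6, 0.490 and 0.430 FPKM (PF), 0.5, 0.6 and 0.690 FPKM (AF) and 0.480, 0.510 and 0.320 FPKM (AF with MNA). The difference of AF from PF was 0.08 on the log2(FPKM + 1) scale, with a 95% interval from -0.19 to 0.35 (limma, adjusted p = 0.816). Its transcripts were divided differently from library to library. The leading transcript ENSMUST00000137343 of 364 bases held 3.4 to 91.4% of the fragments. The longest one, ENSMUST00000144705 of 933 bases, was listed at 0 in 6 libraries and held 90.4% in AF with MNA replicate 2.

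Snhg3 (chr4:132348014-132353686, minus strand) hosts Snora73a and Snora73b and overlaps the coding gene Rcc1 on the same strand. Its own transcripts stood at 0.414, 1.78 and 0.515 FPM (PF), 1.42, 1.70 and 0.349 FPM (AF) and 1.01, 0.632 and 1.10 FPM (AF with MNA). High and low libraries occurred in both PF and AF, and the log2 ratio was 0.36 (limma on the log2(FPM + 1) scale, adjusted p = 0.881). Without PF replicate 2 it was 1.32, and without AF replicate 2 it turned to -0.03. The leading transcript, ENSMUST00000155816 of 332 bases, held 79.2% of the Snhg3 fragments in PF replicate 2 while PF replicates 1 and 3 were listed at 0. The longest, ENSMUST00000141090 of 581 bases, was above 0 in all 9 libraries and held 8.21 to 59.7%. The merged gene entry of 16 transcripts that contains Snhg3, its snoRNAs and Rcc1 is no member by name. It stood at 1.07, 1.06 and 0.840 FPKM (PF), 1.63, 3.13 and 2.24 FPKM (AF) and 2.35, 2.57 and 1.29 FPKM (AF with MNA), and passed the threshold in AF against PF (log2 ratio 1.24; limma, adjusted p = 0.229). Reads of Snhg3 and of Rcc1 cannot be told apart in that entry.

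**Figure D3:**
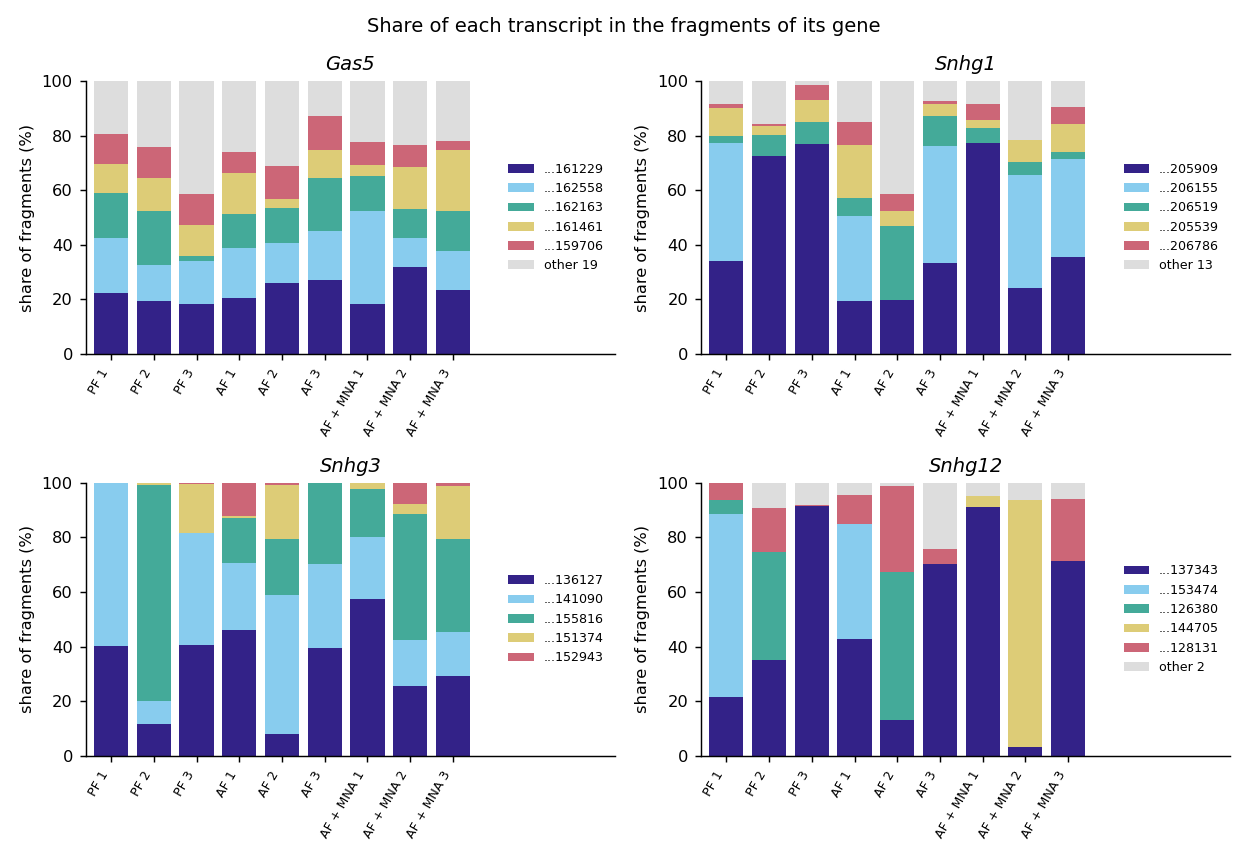
Share of each transcript, in percent of the fragments of its gene (vertical axis), in the 9 libraries for Gas5, Snhg1, Snhg3 and Snhg12; the 5 largest transcripts are named by their last 6 digits. The largest Gas5 transcript stays between 18.3 and 31.8%, while the leading Snhg12 transcript ranges from 3.4 to 91.4%.

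Over all transcripts, 50 of the 66 reached the minimum mean of 0.1 FPKM and were tested, so the counts that follow are not of all members. The threshold was passed by 3 of the 50, all lower in AF, against 2.47% of 18310 lncRNA transcripts. The lowest adjusted p among the 50 was 0.598 (limma). In 3 of 50 the groups did not overlap, against 6.23% of all. The median log2 ratio of the 48 with a value above 0 in both groups was 0.11, beside 0.19 over all tested transcripts. Scaling the libraries to the same median moved that overall value to -0.11, and the same 3 transcripts passed. Of the 66 transcripts, 40 were listed at 0 in at least 1 library.

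The second comparison asked how the genes differed between AF livers with and without MNA. It shares its AF libraries with the first, so a high or low AF library enters both. No member passed the test, for genes or for transcripts.

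Of the gene entries, 0 of 5 passed the threshold, against 1.98% of 12214 entries, and 0 of 5 had an unadjusted p under 0.05 in limma, against 5.22% of all. The median log2 ratio of the 5 was -0.15, beside 0.01 over all. Malat1 averaged 32.5 ± 3.08 FPKM in AF with MNA and 36.2 ± 11.5 FPKM in AF (SD, n = 3), and the difference was -0.10 on the log2(FPKM + 1) scale with a 95% interval from -0.71 to 0.51 (limma, adjusted p = 0.999). For Gas5 the difference was -0.16 with an interval from -0.48 to 0.16 (adjusted p = 0.976), and for Snhg1 0.09 with an interval from -0.25 to 0.44 (adjusted p = 0.989). For Snhg8 it was -0.03 with an interval from -0.38 to 0.33 (adjusted p = 1.00), and for Snhg12 -0.15 with an interval from -0.43 to 0.12 (adjusted p = 0.970).

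Of the 7 summed loci, 0 passed, against 2.87% of 13645 lncRNA loci, and 0 had an unadjusted p under 0.05, against 2.89% of all. Neat1 stood at 43.4, 33.5 and 37.3 FPM in AF with MNA, just below its AF libraries of 43.4, 45.8 and 82.1. Of all loci, 6.38% did not overlap between these groups. The log2 ratio was -0.59 and the difference on the log2(FPM + 1) scale -0.52 ± 0.28 (SE; limma, adjusted p = 0.759). Without AF replicate 3, the highest of these libraries and one of the 2 high in transcripts inside introns, the log2 ratio was -0.23, and the part of the intron signal was not tested. Snhg3 overlapped between the groups, with a log2 ratio of -0.34 (adjusted p = 0.943) that turned to 0.05 without AF replicate 2.

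**Figure D4:**
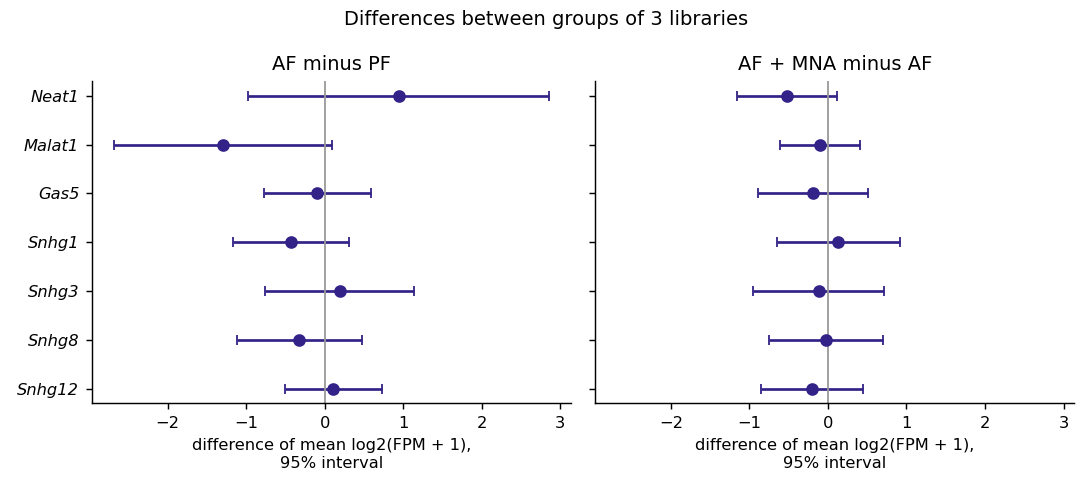
Difference of the group means of log2(FPM + 1), with 95% intervals from limma, for the 7 genes in AF minus PF and in AF with MNA minus AF (horizontal axes, 3 libraries a group). Every interval includes 0, and the widest are those of Neat1 and Malat1 in AF minus PF.

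Of the transcripts, 45 of 66 reached the minimum level in these 6 libraries and 0 passed the threshold, against 1.75% of 19752. In limma 0 of the 45 had an unadjusted p under 0.05, against 1.81% of all, and the model with the library-size covariate called 1, Gas5 ENSMUST00000161005. The groups did not overlap in 5 of 45, against 4.84% of all. These were the long Neat1 form, lower with MNA at a log2 ratio of -0.67 (-0.30 without AF replicate 3), and Gas5 ENSMUST00000159706, at 1.34, 1.33 and 0.619 FPKM with MNA and 1.49, 1.97 and 2.80 FPKM in AF. The other 3 were Gas5 ENSMUST00000161005 (higher with MNA), Snhg1 ENSMUST00000206519 and unspliced Snhg8 ENSMUST00000198509 (both lower), each below 1 FPKM in every one of these libraries. Their adjusted p ran from 0.591 to 0.872 in limma. Of the transcripts called in AF against PF, Malat1 ENSMUST00000172812 had a log2 ratio of -0.22 with MNA over AF (limma, adjusted p = 0.789). Gas5 ENSMUST00000161380 was below the minimum level here and was not tested. Snhg1 ENSMUST00000205909 had a log2 ratio of 1.24 with MNA over AF (limma, adjusted p = 0.591), and did not pass. The log2 ratio was 0.35 without AF with MNA replicate 1, one of the 2 libraries high in transcripts inside introns, whose part was not tested. Without AF with MNA replicate 2 it was 1.59 and passed. The median log2 ratio of the 44 transcripts above 0 in both groups was -0.32, beside -0.16 over all tested, which scaling to the same median moved to 0.06.

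The genes that work with these RNAs were taken from 7 lists of 5 to 14 tested genes. Since 4.3% of all entries passed the threshold in AF against PF and 1.98% with MNA, a count of 0 in lists of this size is near the background. Other snoRNA-host lncRNAs had 9 genes tested in AF against PF, and 0 passed in either direction. The most abundant, Epb41l4aos, stood at 3.94, 3.78 and 3.05 FPKM (PF), 3.98, 2.80 and 4.56 FPKM (AF) and 3.94, 2.45 and 2.85 FPKM (AF with MNA), with overlapping groups. The median log2 ratio of the list was -0.12, beside -0.03 over all entries. With MNA, 8 were tested, 0 passed, and the median was -0.04 beside 0.01.

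Of the snoRNP proteins, which package snoRNAs into working particles, 13 were tested and 1 was called in AF against PF, where 4.3% of all entries were. Snu13, a core protein of the C/D-box particles that also belongs to the spliceosome, stood at 2.58, 3.18 and 2.55 FPKM (PF), 1.24, 0.940 and 1.03 FPKM (AF) and 2.90, 2.09 and 1.17 FPKM (AF with MNA). It was lower in all 3 AF libraries than in any PF library, at a log2 ratio of -1.37 and a difference of -0.86 ± 0.13 on the log2(FPKM + 1) scale (SE; limma, adjusted p = 0.0771). The median of the list was 0.02. With MNA 0 of 13 passed, and Nop10, a core protein of the H/ACA-box particles, was the most abundant at 8.39, 6.50 and 7.38 FPKM in AF and 6.91, 9.47 and 9.48 FPKM in AF with MNA.

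Paraspeckle proteins (14 tested), nuclear speckle proteins and SR kinases (14), nonsense-mediated decay factors (12) and translation factors with an oligopyrimidine start (11) had 0 genes past the threshold in either comparison, against 4.3% and 1.98% of all entries. At an unadjusted p under 0.05 in limma there were 3, 1, 0 and 0 genes of these lists in AF against PF, where 11.7% of all entries were, and 0, 1, 0 and 0 with MNA, where 5.22% were. Their median log2 ratios in AF against PF were -0.10, 0.07, -0.14 and -0.03, and with MNA 0.10, -0.07, 0.04 and 0.02. Hnrnpk, an RNA-binding protein of paraspeckles, stood at 16.3, 18.3 and 16.4 FPKM (PF), 14.7, 15.7 and 14.7 FPKM (AF) and 15.9, 17.4 and 17.0 FPKM (AF with MNA). Its AF libraries lay below all others, but neither difference passed (limma, adjusted p = 0.622 and 0.970). Srrm2, a scaffold of nuclear speckles, Upf1, the helicase of nonsense-mediated decay, and Eef1a1, the elongation factor that brings tRNAs to the ribosome, overlapped between the groups in both comparisons. Of the coding neighbours of the members, 5 were tested and 0 passed in either comparison, against the same 4.3% and 1.98% of all entries.

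**Figure D5:**
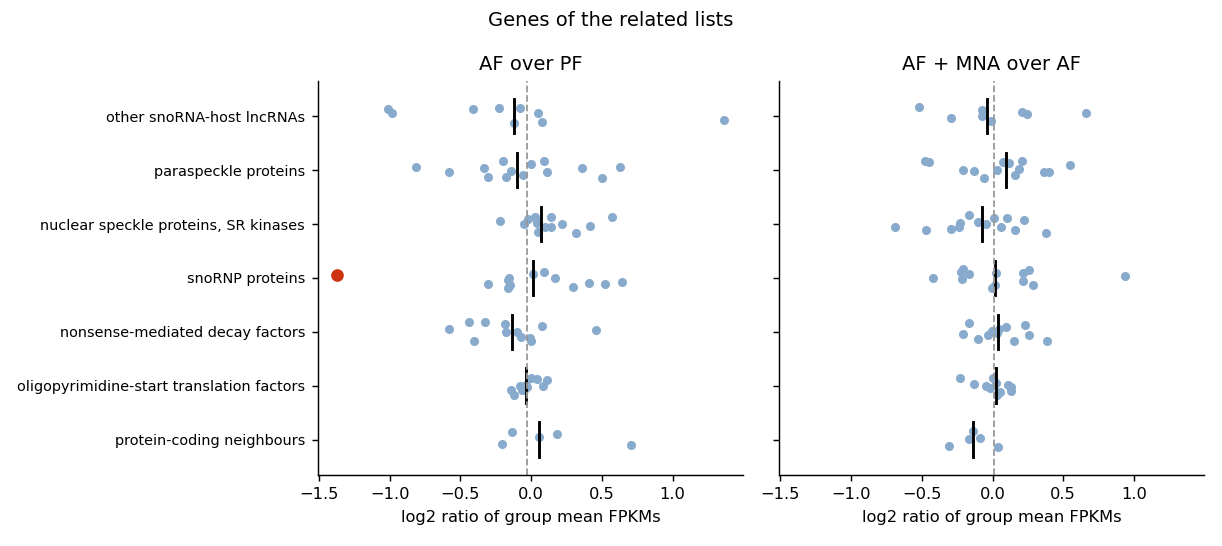
Log2 ratio of group mean FPKMs (horizontal axes) for the tested genes of the 7 lists, 1 point a gene, in AF over PF and AF with MNA over AF, with the median of each list as a bar and the median of all tested entries as a dashed line. The single point past the threshold, in red, is Snu13 at -1.37 in AF over PF.

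The genes most like Malat1, Neat1 and Gas5 across the 9 libraries were sought among 12252 gene entries by Pearson's r of log2(FPKM + 1), with the merged entry standing for Neat1. For Malat1 they were Trit1 (r = 0.98), Selenbp2 (0.95) and Ddx31 (0.94), those for Neat1 included Pitpnm1 (0.92) and Gm27395 (0.89), and for Gas5 they were Sh2b3 (0.96), Zfp398 (0.93) and 4933427J07Rik (0.92). The 9 points share their 3 groups and their depths, and the highest Malat1 value, that of PF replicate 2, is 3.01 times the next. Of the 4486 circular RNAs in the deposited table, 0 had a member as host gene.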

How the data were processed

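Total liver RNA was depleted of ribosomal RNA and sequenced as strand-specific paired-end libraries, 1 per replicate. FPKM values per gene and per lncRNA transcript were computed by the authors with StringTie (1.3.4 in the submitters' processing notes, which also list HISAT2 and TopHat). Aligner role and genome build are not given in the sources used here. The mean coverage signal and the circRNA junction count were deposited by the authors without depth scaling. Of 7879 known lncRNA transcripts, 7841 were found in GENCODE M21 (GRCm38), 7708 with the same start and end.

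Values were tested as log2(FPKM + 1) with limma 3.58.1 (R 4.3.3; lmFit, eBayes with trend, two-sided, Benjamini-Hochberg over all features tested), after minimum means of 0.5 FPKM (genes), 0.1 FPKM (transcripts) and 0.1 FPM (loci). Of 52151 gene entries, the 26345 that had both a name and a known transcript were used. Only the 6 libraries compared entered a fit. The fit was tested on simulated data. Members and lists were chosen with earlier results of these data known. Named were all members, for each member the leading, longest and called transcripts, for each list at most 2 called genes or otherwise the most abundant one, and the 3 genes most like Malat1, Neat1 and Gas5; others were named after their values were seen. Some genes that this rule takes are not reported here.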

Additional observations from a re-analysis of the deposited data

How the results depend on the processing

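Alternatives were a pseudocount of 0.1, libraries scaled to the same median of the tested features above 0, any value above 0 or a stricter minimum level, eBayes without the intensity trend, a fit of all 9 libraries, a replicate block by number, limma's coefficient in place of the ratio, a library-size covariate without moderation, and each library left out in turn. For gene entries in AF against PF the number called stayed at 0 in all of these but 1, and ranged from 0 to 1 with a library left out (Malat1 without PF replicate 1). For AF with MNA against AF it was 0 throughout. For transcripts in AF against PF, 3 were called, 2 to 3 with a library left out and 4 with any value above 0. The transcripts behind the counts with a library left out were not always the same. Malat1 ENSMUST00000172812 kept its call only without PF replicate 1. Gas5 ENSMUST00000161380 lost its call without PF replicate 3, where another transcript was called. Snhg1 ENSMUST00000205909 was called with each library left out. With the covariate the number was again 3, but of the 3 in the report only Gas5 ENSMUST00000161380 was among them. For transcripts in AF with MNA against AF the number was 0, 1 with the covariate and 0 to 2 with a library left out; the cause was not tested. For the summed loci, added after the data were seen, it was 0 in both comparisons; in AF against PF it was 1 (Malat1) with scaled libraries, 1 with all 9 libraries and 0 to 1 with a library left out. Of 743 values of single members under an alternative, 730 kept their side of the threshold, 8 lost a call and 5 gained one. Most came from genes and transcripts not called in the main fit, so this count says little about the 3 called transcripts. With a library left out, 31 coefficients changed sign and 269 kept it, and under the other alternatives 12 changed and 431 kept it. Of these changes of sign, 0 were in called values. The labels do not say whether the replicate numbers pair the libraries. Correlations of same-numbered deviations from the group means lay between -0.05 and 0.08, and those of differently numbered ones between -0.12 and 0.10. These values cannot show whether same-numbered libraries were handled together. With the replicate block 0 gene entries, 4 and 0 transcripts and 0 loci were called. Only 3 libraries a group and the few reads behind transcripts below 1 FPKM limit what could be detected.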
